A study of Mus musculus with 5 samples.

Results

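Galectin family expression was followed in AOM/DSS-induced mouse colon tumors with and without epithelial expression of human Siglec-XII. The 8 genes (Lgals1, Lgals2, Lgals3, Lgals7, Lgals8, Lgals9, Lgals12 and Lgals3bp) were taken by symbol from an RNA-Seq table of 52143 mouse entries, and each symbol matched a single entry. Tumors of 2 Control mice (replicates 1 and 4) and 3 SIGLEC12 mice (replicates 2, 3 and 4) were compared. All mice were females, 8 weeks old at the start, and carried the Villin1-Cre-ERT transgene, in which the villin promoter drives a tamoxifen-dependent Cre recombinase in the epithelium of the small and large intestine. The SIGLEC12 mice (SIGLEC12-Villin1-Cre-ERT) had in addition 1 floxed knock-in allele of human SIGLEC12, placed at the Rosa26 locus behind an EGFP stop cassette that Cre removes, and the Controls were littermates with Cre only. Every mouse received tamoxifen (10 mg/ml, 5 days), a single injection of the carcinogen azoxymethane (AOM, 10 mg/kg), and repeated cycles of 2.0% dextran sodium sulfate (DSS, 5 days, then 14 days of recovery), and tumors were taken on day 87. The series description counts 3 mice in each condition, and a further Control was not analysed here. Expression of the human transgene was not analysed here, so the group labels were not checked against it.

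Galectins are lectins that bind β-galactosides on glycoproteins and glycolipids, outside the cell as cross-linkers of surface receptors and inside the cell on damaged endomembranes. Prototype galectins (encoded by Lgals1, Lgals2 and Lgals7) have a single carbohydrate recognition domain and can dimerize, galectin-3 is the chimera type with a self-associating tail, and the tandem-repeat galectins (encoded by Lgals4, Lgals8, Lgals9 and Lgals12) join different domains in the same chain. The product of Lgals3bp is a secreted scavenger receptor domain glycoprotein that galectins bind, and it is not itself a lectin of this fold. In the gut, galectin-3 and galectin-4 are known as products of the columnar epithelium, galectin-7 marks stratified squamous epithelium, galectin-1 is mainly stromal and galectin-12 is best known from fat cells.

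Levels are the deposited log2(TPM + 1), where TPM is an abundance relative to all RNA of the sample, already divided by transcript length, so that genes can be ranked within a sample. TPM keeps no read depth, and the depth behind each value is unknown. Groups were compared with limma over 10338 genes that had a TPM of at least 1 in at least 2 samples, with Benjamini-Hochberg adjustment over all of them, and a fold change on this scale understates the change of low genes. The unadjusted threshold means p of at most 0.05 together with at least a 2-fold difference. For single genes, group labels were also permuted exactly over all 10 possible splits (two-sided), where p cannot go below 0.1. Protein-coding genes held 5.70% and 6.73% of the TPM in Control replicates 1 and 4 and between 8.75% and 9.72% in SIGLEC12, and the median gene lay 0.38 higher in SIGLEC12 on the log2 scale. Each gene was therefore also fitted after every sample was rescaled to the same protein-coding total, which brought that median to 0.01. On the deposited scale a higher mean in SIGLEC12 was the direction of most genes, and 54.1% of those tested were higher without overlap. Counts of higher means in the lists below include this shift. Control replicate 1 had the fewest genes at a TPM of at least 1 (7947, against 9532 to 10090 in the other samples). In bulk tumors, fewer cells of a type and less RNA per cell cannot be told apart.

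Lgals3 was the most abundant of the 8 genes and Lgals7 the next, in all 5 samples. In both groups Lgals3bp, Lgals9 and Lgals8 followed, and the last 3 places were held by Lgals1, Lgals12 and Lgals2 in Control and by Lgals2, Lgals1 and Lgals12 in SIGLEC12. Neighbours in this order had overlapping ranges in Control for Lgals3bp with Lgals9, Lgals9 with Lgals8, and Lgals12 with Lgals2, and in SIGLEC12 for Lgals8 with Lgals2 and Lgals2 with Lgals1. The summed TPM of the 8 genes was 121 and 192 in Control replicates 1 and 4, and 249, 249 and 382 in SIGLEC12 replicates 2, 3 and 4. The means were 156 ± 49.7 (SD, n = 2) and 293 ± 77.0 (SD, n = 3), a ratio of 1.88, which became 1.29 after rescaling.

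**Figure D1:**
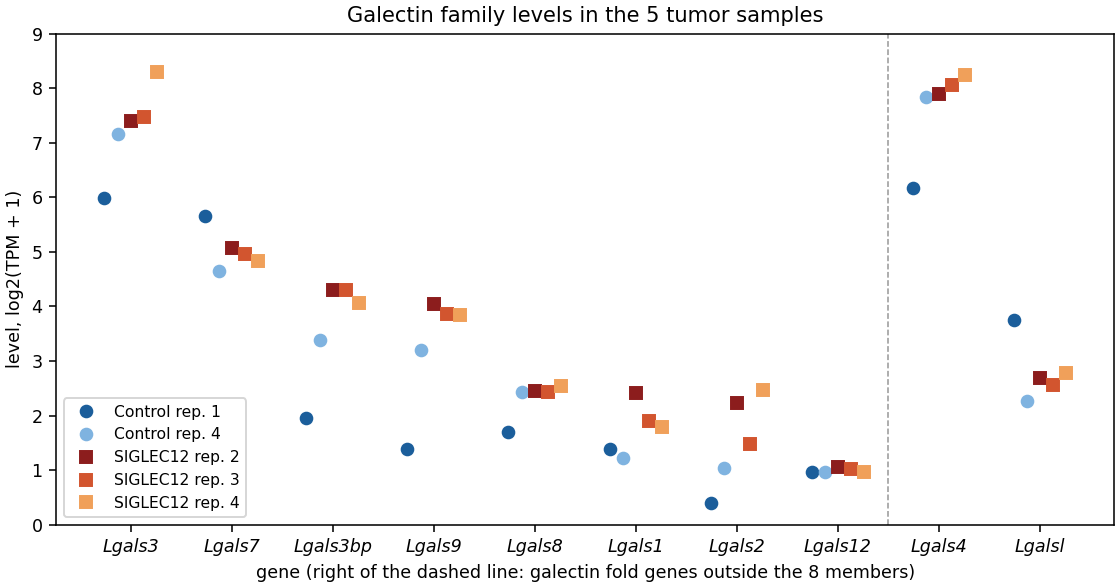
Level of each galectin family gene, log2(TPM + 1) on the y axis, in each of the 5 tumor samples (circles, 2 Control; squares, 3 SIGLEC12), with Lgals4 and Lgalsl, which are outside the 8 genes, right of the dashed line. Control replicate 1 is the lowest point for 5 of the 8 genes and the highest for Lgals7.

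Lgals3 encodes galectin-3, the chimera-type member, secreted by epithelial cells and macrophages (ENSMUSG00000050335, GRCm38 chr14:47367751-47386160, plus strand). Its level was 5.99 in Control replicate 1, 7.16 in Control replicate 4, and 7.40, 7.48 and 8.29 in SIGLEC12 replicates 2, 3 and 4. In TPM this ran from 62.5 and 142 in Control to 168, 177 and 313 in SIGLEC12. All SIGLEC12 samples lay above both Controls, but the gap between the Controls was wider than that between Control replicate 4 and SIGLEC12 replicates 2 and 3. The means were 6.58 ± 0.83 (SD, n = 2) and 7.73 ± 0.49 (SD, n = 3), a log2 fold change of 1.15 (SE 0.44, 2.22-fold), with an unadjusted p of 0.0387 and a limma adjusted p of 0.129 (exact permutation p = 0.1). After rescaling the groups overlapped and the log2 fold change was 0.60 (SE 0.39). Leaving out Control replicate 1 gave 0.56, and leaving out Control replicate 4 gave 1.74, where the limma adjusted p was 0.0493.

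Among the prototype genes, Lgals7 encodes galectin-7, known from keratinocytes (ENSMUSG00000053522, chr7:28863853-28866284, plus strand). It stood at 5.65 and 4.65 in the Controls and at 5.07, 4.96 and 4.83 in SIGLEC12 replicates 2, 3 and 4. Control replicate 1 was the highest sample and Control replicate 4 the lowest, so the SIGLEC12 samples fell inside the Control range. The means were 5.15 ± 0.71 (SD, n = 2) and 4.95 ± 0.12 (SD, n = 3), with a log2 fold change of -0.20 (SE 0.33, exact permutation p = 0.8; adjusted p = 0.665 by limma). After rescaling it was -0.73 (SE 0.39, limma adjusted p = 0.482), and it changed sign with the Control left out, at 0.31 without replicate 1 and -0.70 without replicate 4.

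Lgals2 encodes galectin-2, a prototype galectin of the gastrointestinal epithelium (ENSMUSG00000043501, chr15:78850860-78855529, minus strand). Levels were 0.40 and 1.04 in Control replicates 1 and 4 and 2.22, 1.49 and 2.47 in SIGLEC12 replicates 2, 3 and 4. The groups did not overlap, and the gene was low everywhere, with a TPM of 0.316 to 4.53. Of the Controls only replicate 4 reached a TPM of 1 (1.06), so the gene passed the filter through SIGLEC12. The means of 0.72 ± 0.46 (SD, n = 2) and 2.06 ± 0.51 (SD, n = 3) differed by 1.34 (SE 0.34) on the log2 scale, with an unadjusted p of 0.00623 and a limma adjusted p of 0.0974 (exact permutation p = 0.2). The difference was 1.07 (SE 0.32, unadjusted p = 0.0161) after rescaling and 1.02 (unadjusted p = 0.0438) without Control replicate 1. Without Control replicate 4 it was 1.66, with a limma adjusted p of 0.0481.

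Lgals1 encodes galectin-1, which is abundant in mesenchymal cells (ENSMUSG00000068220, chr15:78926725-78930465, plus strand). Its level was 1.38 and 1.23 in the Controls and 2.41, 1.90 and 1.79 in SIGLEC12 replicates 2, 3 and 4. Here Control replicate 1 was not the lowest sample, and SIGLEC12 replicate 2 stood highest. The means were 1.31 ± 0.11 (SD, n = 2) and 2.03 ± 0.33 (SD, n = 3), a log2 fold change of 0.73 (SE 0.22, unadjusted p = 0.0151, exact permutation p = 0.1; adjusted p = 0.101 by limma). The groups overlapped after rescaling, at 0.36 (SE 0.24). The 10 fibroblast markers had a summed TPM of 15.2 and 22.0 in the Controls and 92.2, 34.7 and 41.8 in SIGLEC12, highest in replicate 2 as for Lgals1. None of them was near 0 in all samples. Of the 9 tested, Pdgfra and Thy1 reached a TPM of 1 in SIGLEC12 samples only, so the filter favoured their direction. All 9 had a higher mean in SIGLEC12 and 3 passed the unadjusted threshold (3.97% of all genes). Of these 3, 1 passed after rescaling, as did 0.368% of all genes. The groups overlapped for some of the 9, such as Col1a1, which at 1.28 in SIGLEC12 replicate 3 lay below both Controls. The part of these markers in the Lgals1 result was not tested.

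The tandem-repeat member with the largest fitted difference was Lgals9, which encodes galectin-9, a galectin inducible by interferon (ENSMUSG00000001123, chr11:78962974-78984946, minus strand). Lgals9 was at 1.39 in Control replicate 1 and 3.20 in Control replicate 4, against 4.04, 3.87 and 3.84 in SIGLEC12 replicates 2, 3 and 4. The SIGLEC12 samples were close together and above both Controls, while Control replicate 1 lay far below all others. The means were 2.30 ± 1.28 (SD, n = 2) and 3.92 ± 0.11 (SD, n = 3), a log2 fold change of 1.62 (SE 0.50, 3.07-fold, unadjusted p = 0.0154, exact permutation p = 0.1; adjusted p = 0.101 by limma). The groups also stayed apart after rescaling, at 1.17 (SE 0.49, unadjusted p = 0.0552). Without Control replicate 1 the difference was 0.71 and under 2-fold, and without Control replicate 4 it was 2.53 (limma adjusted p = 0.0414).

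Lgals3bp encodes the galectin-3 binding protein, a secreted glycoprotein also known as an interferon-induced gene (ENSMUSG00000033880, chr11:118392751-118402092, minus strand). It followed the same sample order in the Controls, with 1.95 in replicate 1 and 3.38 in replicate 4, against 4.30, 4.29 and 4.07 in SIGLEC12 replicates 2, 3 and 4. Again the SIGLEC12 samples lay close together above both Controls. The means were 2.67 ± 1.01 (SD, n = 2) and 4.22 ± 0.13 (SD, n = 3), a log2 fold change of 1.55 (SE 0.41, 2.94-fold, unadjusted p = 0.00801, exact permutation p = 0.1; adjusted p = 0.0974 by limma). After rescaling it was 1.08 (SE 0.39, unadjusted p = 0.0342) with no overlap of the groups. With Control replicate 1 left out it was 0.84, and with Control replicate 4 left out 2.27 (limma adjusted p = 0.0414).

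Of the candidate genes compared by profile further on, Lgals3bp lay nearest to Lgals9. Their upstream sequences are given for that reason, taken from RefSeq on GRCm38.p6, read 5′ to 3′ on the gene's strand and limited to the stretch within 250 bases before the RefSeq start that overlapped no annotated exon. Both were searched on both strands for GAAANNGAAA, the letters of the interferon-stimulated response element, where N is any base. Capitals mark a match, here read on the opposite strand, whose first printed base lies 55 bases before the RefSeq start of Lgals9. The first sequence is chr11:78984947-78985174 (minus strand, 228 bases) and the second is chr11:118402093-118402209 (minus strand, 117 bases).
Lgals9: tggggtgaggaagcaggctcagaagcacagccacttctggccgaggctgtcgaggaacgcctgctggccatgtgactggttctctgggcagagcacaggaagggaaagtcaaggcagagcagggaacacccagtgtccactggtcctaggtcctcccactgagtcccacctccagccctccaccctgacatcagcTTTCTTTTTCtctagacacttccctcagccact
Lgals3bp: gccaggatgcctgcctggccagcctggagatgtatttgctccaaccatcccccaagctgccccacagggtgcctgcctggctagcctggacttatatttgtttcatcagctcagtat
Promoter entries matched by symbol for 6 of the 8 genes, not for Lgals1 and Lgals12. Of 9 galectin-fold and binding protein genes with a promoter entry, Lgals9 alone held these letters, as did 978 of 32851 windows of 250 bases over all genes (2.98%). The Lgals3bp stretch held no match, and it is shorter than the full window. The match is a description of the sequence.

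Genes that interferon induces were low in these tumors. The 16 listed interferon response genes had a summed TPM of 8.89 and 15.5 in Control replicates 1 and 4, and of 31.1, 25.2 and 11.0 in SIGLEC12 replicates 2, 3 and 4. Of the 16, 8 entered the test, of which Isg15 and Usp18 reached a TPM of 1 in SIGLEC12 samples only. All 8 had a higher mean in SIGLEC12 and 0 passed the unadjusted threshold, which 3.97% of all genes passed on the higher side. The median log2 fold change of the 8 was 0.46 against 0.38 for all genes, and 0.16 after rescaling. Those with the smallest p were Oas1a, an antiviral oligoadenylate synthetase (log2 fold change 0.75, unadjusted p = 0.0308), and Ifi35 (0.38, unadjusted p = 0.0694), at 0.41 and 0.04 after rescaling. SIGLEC12 replicate 4 was near the Controls in the summed interferon response TPM but near the other SIGLEC12 samples in Lgals9 and Lgals3bp. The 12 macrophage markers were likewise at 93.8 and 54.4 TPM in sum in SIGLEC12 replicates 2 and 3 but at 17.3 in replicate 4, below the Controls at 23.5 and 23.7, and none was near 0 in all samples. Of the 9 macrophage markers tested, 0 passed the unadjusted threshold, against 3.97% of all genes on the higher side. The part of these interferon and macrophage values in the Lgals9 and Lgals3bp results was not tested.

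Lgals8 encodes galectin-8, which recognizes damaged endosomes and lysosomes (ENSMUSG00000057554, chr13:12439415-12464944, minus strand). The level was 1.69 in Control replicate 1 and 2.43 in Control replicate 4, and 2.45, 2.43 and 2.55 in SIGLEC12 replicates 2, 3 and 4. Only Control replicate 1 stood apart, and the groups overlapped. The means of 2.06 ± 0.52 (SD, n = 2) and 2.48 ± 0.06 (SD, n = 3) differed by 0.41 (SE 0.24, exact permutation p = 0.2; adjusted p = 0.249 by limma), by -0.02 after rescaling and by 0.04 without Control replicate 1. Without Control replicate 4 the difference was 0.78 (limma adjusted p = 0.0478), which is under 2-fold.

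Lgals12 encodes galectin-12, associated with lipid droplets of fat cells (ENSMUSG00000024972, chr19:7596660-7607193, minus strand). Its level was 0.96 in both Controls and 1.05, 1.02 and 0.97 in SIGLEC12 replicates 2, 3 and 4. It entered the test only because SIGLEC12 replicates 2 and 3 reached a TPM of 1. The log2 fold change was 0.05 (SE 0.16, exact permutation p = 0.2; adjusted p = 0.810 by limma), and its direction turned to -0.23 after rescaling. The 7 adipocyte markers were low, with a summed TPM of 2.34 and 0.510 in Control replicates 1 and 4 and of 3.10, 7.64 and 1.59 in SIGLEC12 replicates 2, 3 and 4. Adipoq, the adiponectin gene, was listed at 0 in Control replicate 4 and was at most 0.69 elsewhere.

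Of the 8 genes, 7 had a higher mean in SIGLEC12 and 1 a lower mean. At the unadjusted threshold 4 of the 8 were higher (Lgals2, Lgals3, Lgals9 and Lgals3bp), against 3.97% of all genes tested, and 0 were lower, against 0.445%. An unadjusted p under 0.05 without the fold limit held for 5 of the 8, where 33.4% of all genes passed on the higher side. The groups did not overlap, with SIGLEC12 above, for 5 of the 8 (Lgals1, Lgals2, Lgals3, Lgals9 and Lgals3bp), against 54.1% of all genes. Lgals12, whose nearest samples were at 0.96 and 0.97 and which passed the filter only through SIGLEC12, is not counted. The share of all genes keeps such genes, and by that rule the count would be 6 of the 8. Lgals2, which is counted, also needed SIGLEC12 samples to pass the filter, since only Control replicate 4 reached a TPM of 1 (1.06). Its place in the counts, here and with samples left out, was favoured by that filter. With limma and Benjamini-Hochberg adjustment 0 of the 8 genes and 0% of all genes passed an adjusted p under 0.05 with a 2-fold change. The median log2 fold change of the 8 was 0.94 against 0.38 for all genes. After rescaling, 2 of the 8 (Lgals2 and Lgals3bp) passed the unadjusted threshold against 0.368% of all genes, and the median of the 8 was 0.48 against 0.01. On that scale SIGLEC12 lay above Control without overlap for 3 of the 8 (Lgals2, Lgals9 and Lgals3bp), against 15.6% of all genes. Only Lgals12 then lay below without overlap, as did 16.8% of all genes.

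Both Controls bore on these counts. Without Control replicate 1, 1 of the 8 (Lgals2) passed the unadjusted threshold against 1.38% of all genes, and the median of the 8 was 0.64 against 0.26. Without Control replicate 4, Lgals2, Lgals3, Lgals9 and Lgals3bp passed the adjusted 2-fold threshold, as did 9.31% of all genes. With rescaling and without Control replicate 1 together, the median of the 8 was 0.22 against -0.048 for all genes. In each of these fits the lone Control is assumed to vary as the SIGLEC12 samples do. Leaving out SIGLEC12 replicate 3 or 4 raised the unadjusted p of Lgals3 above 0.05, to 0.0545 and 0.101.

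**Figure D2:**
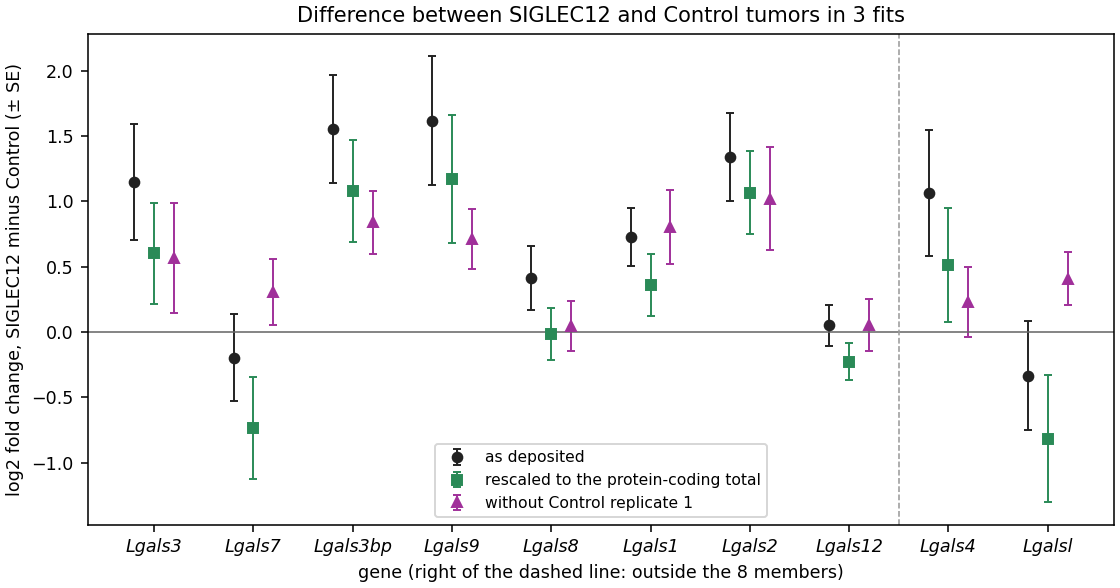
Log2 fold change (SIGLEC12 minus Control, y axis) with its limma standard error for each gene, on the deposited values (black circles), after rescaling to the protein-coding total (green squares) and without Control replicate 1 (purple triangles). Lgals9 goes from 1.62 to 1.17 and 0.71, and Lgals7 takes values of -0.20, -0.73 and 0.31.

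The galectin gene outside the 8 with the highest level was Lgals4, which encodes galectin-4, a tandem-repeat galectin of intestinal epithelium (chr7:28833854-28841708, plus strand, upstream of Lgals7 on the same chromosome). It stood at 6.16 and 7.84 in Control replicates 1 and 4 and at 7.90, 8.05 and 8.24 in SIGLEC12 replicates 2, 3 and 4. Control replicate 4 was close to the SIGLEC12 samples. The log2 fold change was 1.06 (SE 0.48, exact permutation p = 0.1; adjusted p = 0.167 by limma), 0.51 after rescaling, 0.23 without Control replicate 1 and 1.90 without Control replicate 4 (limma adjusted p = 0.0414). Lgalsl, which encodes a galectin-related protein, went the other way, at 3.75 in Control replicate 1 and between 2.27 and 2.78 in the other samples (log2 fold change -0.33, limma adjusted p = 0.551). Omitting Control replicate 1 gave 0.41, and omitting Control replicate 4 gave -1.08 (limma adjusted p = 0.0421). Grifin, a lens galectin relative, was listed at 0 in all samples, and Lgals6, a close copy of Lgals4 in some mouse strains, was not analysed here.

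Galectin RNA had a different make-up in Control replicate 1. Of the summed TPM of the 8 genes and Lgals4, Lgals4 took 36.8% in Control replicate 1, 54.3% in Control replicate 4, and 48.8%, 51.5% and 44.1% in SIGLEC12 replicates 2, 3 and 4. Lgals3 took 32.6% and 33.9% in the Controls and 34.7%, 34.5% and 45.8% in SIGLEC12. Lgals7 took 25.6% in Control replicate 1 and between 4.01% and 6.71% in the other 4 samples. Lgals9 and Lgals3bp each took under 4% in every sample. The share of Lgals7 separated Control replicate 1 from all other samples, and Control replicate 4 lay within the SIGLEC12 range for that gene.

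**Figure D3:**
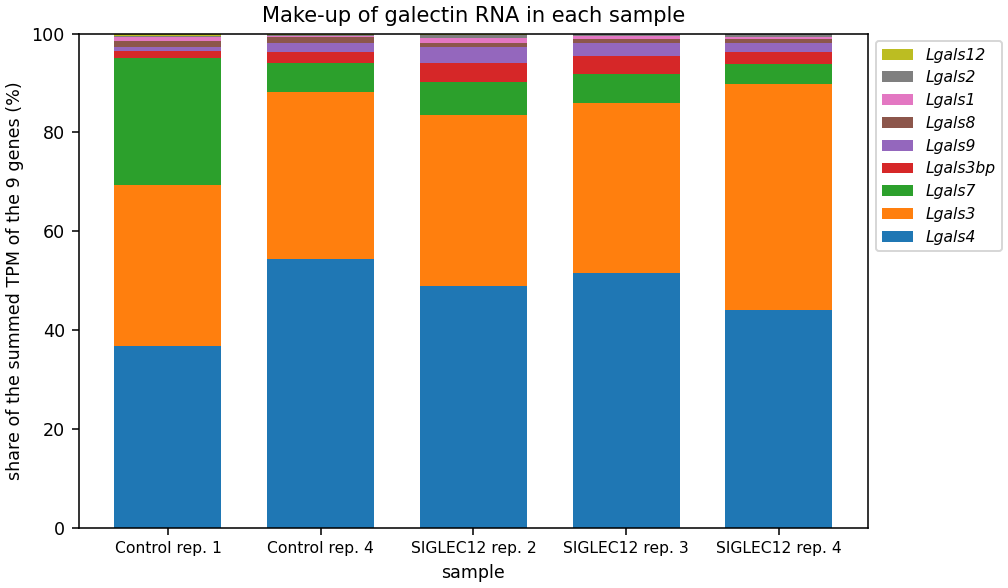
Share of each gene in the summed TPM of the 8 galectin family genes and Lgals4 (y axis, percent, stacked bars) in each of the 5 samples. The Lgals7 segment is 25.6% in Control replicate 1 and at most 6.71% elsewhere.

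Epithelial markers also differed between the samples, and Control replicate 1 had the lowest columnar and the highest squamous sum. Columnar epithelium markers (Epcam, Cdh1, Cdh17, Vil1, Krt8, Krt18, Krt19, Krt20, Cdx2 and Cldn7) had a summed TPM of 257 in Control replicate 1, 733 in Control replicate 4, and 938, 895 and 1515 in SIGLEC12 replicates 2, 3 and 4. At least 9 of the 10 had a TPM of at least 1 in each sample, so columnar epithelium markers were present in all 5. Of 9 tested, 6 were higher in SIGLEC12 at the unadjusted threshold, against 3.97% of all genes. After rescaling 0 of the 9 passed it, against 0.368% of all genes. The list median log2 fold change was 1.33, with 0.79 after rescaling and 0.56 without Control replicate 1. Squamous epithelium markers, 15 genes with the keratinocyte keratins Krt5 and Krt14 among them, summed to 3021 TPM in Control replicate 1, 768 in Control replicate 4, and 1090, 560 and 721 in SIGLEC12. At least 13 of the 15 had a TPM of at least 1 in each sample. Of 14 tested, 12 had a lower mean in SIGLEC12 and 0 passed the unadjusted threshold, against 0.445% of all genes on the lower side. After rescaling 4 of the 14 passed it on the lower side, where 142 of all 10338 genes passed. The list median was -0.82, with -1.31 after rescaling and -0.25 without Control replicate 1. Of the 15, 10 were highest in Control replicate 1, such as Krt14 (10.16, against 5.69 to 7.64 in the others), and 2 were lowest there, namely Krt4 (4.30, against 5.85 to 7.45) and Lor (0.21, against 1.03 to 2.22). Of the remaining tissue lists, smooth muscle markers (7 genes) summed to between 51.0 and 58.4 TPM in 4 samples and to 128 in SIGLEC12 replicate 2, and 0 of the 6 endothelial markers entered the test. All 6 endothelial markers were higher in SIGLEC12 without overlap of the groups. Among the genes tested 54.1% were, but these 6 lay below the filter, and no share is given for such genes. Levels were low, with a summed TPM of 1.09 in each Control and of 4.98, 2.17 and 2.96 in SIGLEC12 replicates 2, 3 and 4. These markers were not compared after rescaling, and their part in the galectin differences was not tested.

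Each gene was then expressed relative to the mean level of the 10 columnar markers in the same sample, a comparison chosen after seeing the data. Lgals3 was then at 2.06 and 1.88 in Control replicates 1 and 4 and at 1.86, 2.02 and 2.05 in SIGLEC12 replicates 2, 3 and 4, all within a narrow range. The SIGLEC12 mean differed from the Control mean by 0.01 on the log2 scale (exact permutation p = 1.0). For Lgals4 the difference was -0.08 (exact permutation p = 1.0). For Lgals9 the difference was 0.48 (exact permutation p = 0.3) and for Lgals3bp 0.41 (exact permutation p = 0.4), with SIGLEC12 replicates 2 and 3 above both Controls and replicate 4 among or below them. Lgals8 and Lgals12 were lower in all SIGLEC12 samples on this scale, with differences of -0.73 and -1.09 (exact permutation p = 0.1 for each). The level of Lgals12 itself differed by 0.05, so its value here restates the higher columnar marker mean in SIGLEC12. The differences of Lgals1 (-0.41), Lgals2 (0.20) and Lgals7 (-1.34) came with overlapping groups.

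Relative to the mean of the 15 squamous markers, likewise taken up after seeing the data, Lgals7 was at 0.06 and -0.01 in the Controls and at 0.30, 0.61 and 0.50 in SIGLEC12 replicates 2, 3 and 4. The Controls, which lay farthest apart in the Lgals7 level, were then nearly equal. The SIGLEC12 samples lay above them by 0.45 on average (exact permutation p = 0.1). The level of Lgals7 itself differed by -0.20, so this difference restates the lower squamous marker mean in SIGLEC12. Every other member was also higher on this scale, from 0.69 for Lgals12 to 2.26 for Lgals9. Groups overlapped for Lgals8 and Lgals12. The part that the amounts of columnar and squamous epithelium took in the group differences was not tested beyond these ratios.

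**Figure D4:**
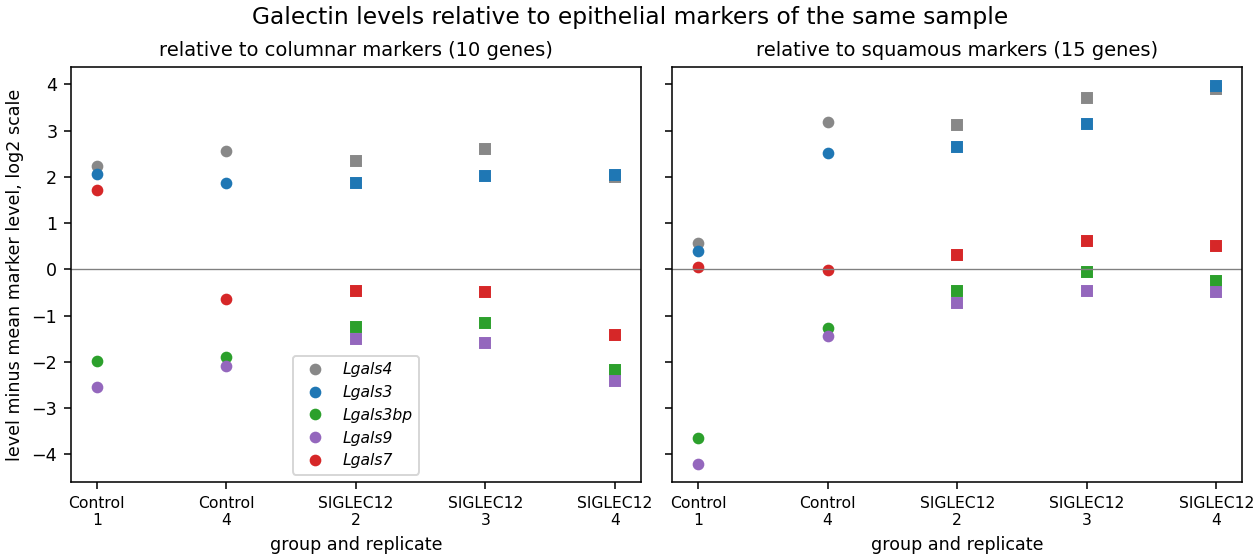
Level of Lgals4, Lgals3, Lgals3bp, Lgals9 and Lgals7 minus the mean level of 10 columnar (left) or 15 squamous (right) epithelial markers in the same sample (y axis, log2 scale), for 2 Control samples (circles) and 3 SIGLEC12 samples (squares). Lgals3 lies between 1.86 and 2.06 in all 5 samples relative to the columnar markers, and Lgals7 lies between -0.01 and 0.61 relative to the squamous markers.

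The enzymes that build galectin ligands were measured next, from a list of 18 genes for N-glycan branching, poly-N-acetyllactosamine and mucin-type O-glycan synthesis. Of 17 tested, 17 had a higher mean in SIGLEC12, the direction of most genes on this scale. Of these, 1 passed the unadjusted threshold, which 3.97% of all genes passed. After rescaling 13 of the 17 had a higher mean and 0 passed, against 0.368% of all genes on the higher side. The gene that passed before rescaling was C1galt1c1, the chaperone of the core O-glycan galactosyltransferase. It was at 1.56 and 1.94 in the Controls and at 2.67, 2.90 and 2.87 in SIGLEC12 replicates 2, 3 and 4. Its log2 fold change was 1.07 (SE 0.19, unadjusted p = 0.00113, limma adjusted p = 0.0974), with 0.64 after rescaling and 0.88 without Control replicate 1, both under 2-fold. The median of the list was 0.55 against 0.38 for all genes, and 0.16 against 0.01 after rescaling.

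Among 18 glycoprotein receptors and partners of galectins, 13 were tested, 12 had a higher mean in SIGLEC12, and 2 passed the unadjusted threshold (3.97% of all genes). After rescaling 9 had a higher and 4 a lower mean, and 0 passed, against 0.368% of all genes on the higher side. P4hb, a protein disulfide isomerase that galectin-9 binds at the T-cell surface, was at 4.55 in both Controls and at 5.49, 5.68 and 5.84 in SIGLEC12 (log2 fold change 1.12, SE 0.23, unadjusted p = 0.00202). The Controls were equal for this gene, and the difference was 0.59 after rescaling and 1.12 without Control replicate 1. Cd47, the widely expressed ligand of the phagocyte receptor SIRPα, was at 2.13 and 2.93 in the Controls and at 3.54, 3.85 and 3.81 in SIGLEC12 (1.21, SE 0.28, unadjusted p = 0.00440), with 0.73 after rescaling and 0.80 without Control replicate 1. The list median was 0.80, and 0.28 after rescaling. Cd44, a hyaluronan receptor and galectin partner, differed by -0.04, and by -0.56 after rescaling (unadjusted p = 0.0566). The leukocyte partners Havcr2 (TIM-3), Spn (CD43), Lag3 and Ptprc (CD45) did not enter the test. The first 3 had group means of 0.10 to 0.14, and Ptprc had means of 0.59 in Control and 0.81 in SIGLEC12, with overlapping groups. The 7 T cell markers summed to between 0.480 and 1.27 TPM in each sample, and 0 of them entered the test.

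Genes that act with galectin-3 and galectin-8 at damaged endomembranes numbered 10. Of 9 tested, 9 had a higher mean in SIGLEC12 and 0 passed the unadjusted threshold, against 3.97% of all genes on the higher side. The list median was 0.54, and 0.09 after rescaling. The smallest p values were those of Chmp4b, an ESCRT-III membrane repair subunit (log2 fold change 0.91, unadjusted p = 0.00976), and Tsg101, an ESCRT-I subunit (0.59, unadjusted p = 0.0176). After rescaling these were 0.39 and 0.09. Trim16, a ubiquitin ligase that works with galectin-3 in lysosome repair, differed by 0.62 (unadjusted p = 0.0641), by 0.17 after rescaling and by 0.21 without Control replicate 1. Calcoco2, which encodes the galectin-8 adaptor NDP52, was near 0 in all samples.

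Profiles most like those of the members were sought among 2691 protein-coding genes, each averaging 5 TPM or more, by the root mean square difference of the centred levels over the 5 samples. For Lgals3 the nearest were St6galnac6 (0.101), a sialyltransferase, B3gnt3 (0.105), an N-acetylglucosaminyltransferase of the ligand list, and Reg4 (0.107), a secreted lectin of enteroendocrine and goblet-like cells. For Lgals9 they were Lgals3bp (0.141), Phgr1 (0.150) and the homeobox gene Hoxa9 (0.174), and for Lgals3bp they were Phgr1 (0.121), Crip1 (0.132) and Lgals9 (0.141). For Lgals2 they were Nans (0.179), the sialic acid synthase, the gut peptide gene Pyy (0.206) and Insig1 (0.220), a sterol sensor. For Lgals1 they were Csrp1 (0.0887), Slc25a39 (0.121) and Ubxn1 (0.124).

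Genes near Lgals7 in profile were Tmem45a (0.135) and Klc1 (0.156), both highest in Control replicate 1. Genes near Lgals8 were the glutamine transporter gene Slc1a5 (0.0522) and Rin2 (0.0661), both lowest in Control replicate 1. For Lgals12 the nearest were Myc (0.0501), Zfp706 (0.0560) and Map4k4 (0.0626), each farther from Lgals12 than a flat line, at 0.0359. With 5 samples that share their total scaling, such a likeness describes the profiles and carries no test.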

How the data were processed

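RNA-Seq of colon tumors from 2 Control and 3 SIGLEC12 mice was analysed from 1 table. The values the authors deposited are log2(TPM + 1) per Ensembl entry, relative to all annotated RNA: back-transformed, a column sums to about 1000000. The submitters' processing notes name kallisto 0.45.0 and GRCm38. The study's methods give a human reference and an mRNA kit, whereas the labels give a stranded total RNA kit. Whether technical replicate libraries were averaged is not given in the sources used here. Of the entries, 98.45% were in GENCODE M21, which supplied biotypes and coordinates.

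Genes with a TPM of at least 1 in at least 2 samples (10338, of them 9222 protein-coding) entered limma 3.58.1 under R 4.3.3 (lmFit, eBayes with trend, two-sided, no covariate, Benjamini-Hochberg adjustment). The fit was tested on simulated data with independent noise for each gene and no shift common to a sample. That test does not cover the shift between samples seen here. Replicates are separate mice. The study tested counts, and no counts were used here, so depth and its precision are unknown. Members and lists were chosen with earlier results of these data known. Named genes are the 8 members, other galectin-fold genes, the genes of each pathway list past the unadjusted threshold (at most 4 in each direction) or else the 2 of smallest p, the 3 nearest profiles (2 of these genes are not reported here), and markers. Cd44, Trim16, Adipoq, Calcoco2, Havcr2, Spn, Lag3, Ptprc, Isg15 and Usp18 were named after their values were seen. Alternatives were rescaling to the protein-coding total, quantile normalization, median-ratio size factors, sample quality weights, no trend, a TPM filter of 5 or none, a pseudocount of 0.1, and leaving out each sample.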

Additional observations from a re-analysis of the deposited data

How the results depend on the processing

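No paired analysis was possible because Control and SIGLEC12 have a single replicate number in common. Lgals2, Lgals3, Lgals9 and Lgals3bp kept a higher mean in SIGLEC12 under every alternative in which they were tested, though for Lgals3 by very little. The lowest differences were 0.008 for Lgals3, 0.20 for Lgals2 and 0.41 for Lgals3bp, all relative to the columnar markers. For Lgals9 the lowest was 0.32, rescaled without Control replicate 1, where Lgals3 was at 0.13. Lgals8 turned to -0.018 (rescaled), -0.023 (median-ratio size factors) and -0.31 (rescaled without Control replicate 1), and Lgals12 to -0.23, -0.23 and -0.16 in these fits and to -0.21 with quantile normalization. Relative to the columnar markers, Lgals1 was at -0.41, Lgals8 at -0.73, Lgals12 at -1.09 and Lgals4 at -0.079; rescaled without Control replicate 1, Lgals4 was at -0.21 and Lgalsl at 0.053. Relative to the squamous markers, Lgals7 was at 0.45 and Lgalsl at 0.31. The marker-relative settings and rescaling without Control replicate 1 were chosen after seeing the data.

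With each sample omitted in turn, the log2 fold change was 1.02 to 1.66 for Lgals2, 0.56 to 1.74 for Lgals3, -0.70 to 0.31 for Lgals7, 0.045 to 0.78 for Lgals8, 0.71 to 2.53 for Lgals9, 0.84 to 2.27 for Lgals3bp and -1.08 to 0.41 for Lgalsl. It gave 0 to 962 higher and 0 to 97 lower genes at the adjusted threshold, and 143 to 1366 higher and 51 to 146 lower at the unadjusted threshold. In the deposited scaling the unadjusted counts were 410 higher and 46 lower. They became 1087 higher with a pseudocount of 0.1, 38 higher and 142 lower rescaled, 45 and 131 with quantile normalization, 46 and 139 with median-ratio size factors, 27 and 223 rescaled without Control replicate 1, and 19 lower at a TPM of 5, where Lgals1, Lgals2, Lgals8 and Lgals12 were not tested. Lgals3 missed the unadjusted threshold with no filter and with sample quality weights, and Lgals1 passed it with a pseudocount of 0.1. The limma adjusted p over the alternatives ran from 0.0481 to 0.653 for Lgals2, 0.0493 to 0.927 for Lgals3, 0.0478 to 0.986 for Lgals8, 0.0414 to 0.709 for Lgals9 and 0.0414 to 0.677 for Lgals3bp.

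List medians (rescaled, quantile, median-ratio, rescaled without Control replicate 1, then the leave-one-out range) were 0.16, 0.19, 0.16, -0.090 and 0.26 to 0.89 for the glycan enzymes, 0.28, 0.20, 0.27, 0.23 and 0.63 to 0.82 for the partners (0.38 with no filter), and 0.093, 0.077, 0.083, -0.018 and 0.25 to 0.69 for the endomembrane genes. The columnar median was 0.13 rescaled without Control replicate 1 and 0.56 to 2.07 with samples left out. The squamous median was -1.31 rescaled, -1.32 with median-ratio size factors and -1.54 to -0.25 with samples left out. The interferon median was 0.0012 rescaled without Control replicate 1. The log2 ratio of summed TPM was 0.91 as deposited and 0.36 rescaled. The cause of these changes was not tested. With 2 Controls, and with depth unknown, low members such as Lgals2 and Lgals12 are measured least firmly.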
